A study of Mus musculus with 2 samples.

Results

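The Sox, Pax, Lhx and Fox genes are 4 families of transcription factors that specify cell types in the embryo. The genes described here were the autosomal protein-coding genes of the GENCODE vM21 mouse annotation named Sox, Pax, Lhx or Fox (classes a to s) with a number. Pax5, a B cell factor, was set aside. The rule gave 75 genes of the 20807 autosomal protein-coding genes: 18 Sox, 8 Pax, 8 Lhx and 41 Fox. They were examined for H3K4me3, a histone mark of transcript starts, in group 2 innate lymphoid cells (ILC2s). The ILC2s were sorted as CD45+ Lin- ST2+ cells from the lungs of 8-week-old wild-type C57BL/6J offspring. The reporting summary of the study also lists CD90.2 in the gate for adult lung ILC2s. One group of offspring was born to control mothers, given PBS with alum before mating and PBS intranasally during pregnancy. The other was born to asthmatic mothers, given ovalbumin (OVA) with alum before mating and OVA intranasally during pregnancy, so alum was common to both groups and the fathers were untreated. The mark was profiled by carrier-assisted ChIP-seq (CATCH-seq), a method made for few cells, in about 3000 ILC2s per group, from 1 experiment with 1 pregnant dam per group. There was 1 library per group, so values have no replicate and groups were not tested against each other, and maternal treatment, dam and library cannot be told apart.

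Sox proteins bind DNA through an HMG box, Pax proteins through a paired domain, Lhx proteins through a homeodomain next to LIM domains, and Fox proteins through a forkhead domain. Many members are switched on in 1 embryonic lineage and silent elsewhere, and their starts often lie in CpG islands, stretches rich in the CG dinucleotide. H3K4me3 is usually found at CpG-rich starts that are active, and at some silent ones that also carry the repressive mark H3K27me3, which was not examined here. A smaller number of members, such as the FoxO, FoxK and FoxP genes, are expressed broadly or work in lymphocytes.

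A gene was counted as marked when a peak of a list lay within 1000 bp of any of its annotated transcript starts. The peak list for control mothers' offspring (control list) held 42126 peaks and that for asthmatic mothers' offspring (asthmatic list) 51610, with median widths of 315 and 249 bp. Each peak has a fold over the caller's background and a q-value given by the authors as −log10 q, which were set side by side but not compared in size between the lists, since the lists were called separately. The number of fragments at a summit was solved from the authors' fold and p-value. Its median over all peaks was 21 in the control list and 18 in the asthmatic list, and the smallest was 9 and 8, so a start with fewer fragments would be in neither list. Absence from a list is therefore a value below the caller's threshold and not absence of the mark. Of 13 ILC2 markers, 10 and 7 were marked in the control and asthmatic lists, beside 52.5% and 43.7% of all autosomal protein-coding genes. Among them Il1rl1, which encodes the sorted receptor ST2, Rora and Id2 were marked in both. Klrg1, Icos and Il13 had no start peak in either list, and Gata3, Il5 and Il7r had one in the control list only. None of the 5 T cell, 4 B cell, 5 macrophage, 4 neutrophil or 5 fibroblast markers was marked in either list. In the control list 2 of 6 epithelial markers (Cdh1 and Epcam) and 1 of 5 endothelial markers (Kdr) were marked, and none in the asthmatic list.

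Promoter sequences show the contrast on which the results turn. Of the 75 members, 52 were found in the RefSeq table of mouse promoters (GRCm38.p6, 250 bases before to 50 bases after a start), with 68 promoters. A CG dinucleotide was present in 94.6% of all 32851 promoters of the table, with a median of 7 per promoter, and the members' promoters had a median of 17.5. The CG motif reads the same on both strands. Foxk2, whose start was marked in both lists, Foxo1, also marked in both, and Sox4, marked in the control list only, are printed first, 5′ to 3′ on the gene's strand, with each CG in capitals.
Foxk2 (chr11:121259737-121260036, plus strand): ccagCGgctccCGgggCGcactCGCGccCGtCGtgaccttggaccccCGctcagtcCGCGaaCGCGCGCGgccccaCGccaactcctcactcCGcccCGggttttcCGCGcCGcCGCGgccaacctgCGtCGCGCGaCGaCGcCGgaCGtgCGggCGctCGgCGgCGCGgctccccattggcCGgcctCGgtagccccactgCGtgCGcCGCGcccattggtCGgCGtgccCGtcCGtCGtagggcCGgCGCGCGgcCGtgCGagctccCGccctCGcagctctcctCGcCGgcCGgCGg
Foxo1 (chr3:52268087-52268386, plus strand): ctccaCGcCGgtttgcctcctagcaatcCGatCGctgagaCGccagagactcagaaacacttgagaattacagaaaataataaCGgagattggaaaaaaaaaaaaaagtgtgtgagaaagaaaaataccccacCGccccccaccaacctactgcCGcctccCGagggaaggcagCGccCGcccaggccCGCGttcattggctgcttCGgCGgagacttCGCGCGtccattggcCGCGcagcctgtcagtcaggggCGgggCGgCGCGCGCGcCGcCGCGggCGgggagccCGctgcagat
Sox4 (chr13:28953650-28953949, minus strand): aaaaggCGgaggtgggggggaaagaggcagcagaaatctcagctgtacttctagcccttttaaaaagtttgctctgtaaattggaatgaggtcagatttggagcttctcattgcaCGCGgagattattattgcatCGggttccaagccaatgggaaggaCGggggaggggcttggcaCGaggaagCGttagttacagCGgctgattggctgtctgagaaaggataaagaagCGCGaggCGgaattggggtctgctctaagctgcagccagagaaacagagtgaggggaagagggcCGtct
These held 59, 31 and 12 CG dinucleotides, respectively. Sox1 and Lhx1 were in neither list although their promoters are rich in CG, and Foxi2 was in neither list and has a promoter poor in CG.
Sox1 (chr8:12395269-12395568, plus strand): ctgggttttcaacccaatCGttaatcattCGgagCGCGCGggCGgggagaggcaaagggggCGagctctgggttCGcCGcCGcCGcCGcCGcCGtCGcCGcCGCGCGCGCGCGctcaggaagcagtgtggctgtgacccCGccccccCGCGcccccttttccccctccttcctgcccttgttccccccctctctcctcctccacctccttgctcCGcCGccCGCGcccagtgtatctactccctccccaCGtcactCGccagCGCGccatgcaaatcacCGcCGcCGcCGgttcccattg
Lhx1 (chr11:84525485-84525784, minus strand): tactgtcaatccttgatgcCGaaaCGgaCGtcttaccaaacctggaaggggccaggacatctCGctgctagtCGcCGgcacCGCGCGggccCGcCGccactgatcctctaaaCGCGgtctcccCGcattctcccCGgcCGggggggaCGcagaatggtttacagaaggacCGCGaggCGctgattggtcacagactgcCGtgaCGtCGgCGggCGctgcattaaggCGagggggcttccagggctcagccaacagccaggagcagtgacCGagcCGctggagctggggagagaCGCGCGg
Foxi2 (chr7:135410117-135410416, plus strand): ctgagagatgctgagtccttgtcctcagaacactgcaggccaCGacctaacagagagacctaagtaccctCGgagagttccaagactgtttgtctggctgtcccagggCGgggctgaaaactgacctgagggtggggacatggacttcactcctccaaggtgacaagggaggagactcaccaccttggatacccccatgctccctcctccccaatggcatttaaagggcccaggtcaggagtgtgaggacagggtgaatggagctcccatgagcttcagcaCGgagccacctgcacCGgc
The Sox1 promoter held 37 CG dinucleotides and that of Lhx1 31, as many as Foxo1, against 5 in Foxi2. The start that RefSeq gives Sox1 lies 224 bp from the GENCODE start used for the counts below, where the same window held 18 CG dinucleotides. For Foxk2, Foxo1 and Lhx1 the starts of both annotations differ by at most 3 bp.

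Fewer members than genes in general were marked. In the control list 26 of the 75 members had a start peak (34.7%, exact Clopper-Pearson 95% interval 24.0 to 46.5%), beside 52.5% of all autosomal protein-coding genes. In the asthmatic list 17 had one (22.7%, 13.8 to 33.8%), beside 43.7% of all genes. Both shares of the members and their intervals lay below the background. With only the 10000 strongest peaks of each list this held for the control list (8 of 75, 10.7%, 4.72 to 19.9%, beside 33.8% of all genes) but not for the asthmatic list (5 of 75, 6.67%, 2.20 to 14.9%, beside 9.82%). The intervals cover counting error only, and members of 1 family are related genes rather than independent draws.

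Split over the lists, 16 members were marked in both (43.1% of all genes), 10 in the control list only (9.37% of all genes), 1 in the asthmatic list only (0.634% of all genes) and 48 in neither (46.9% of all genes). The 48 unmarked members were 64% of the 75. Among genes marked in the control list, 61.5% of the members and 82.1% of all genes were also in the asthmatic list. The share of members found again in the asthmatic list was thus smaller. It is set beside the strength of the control peaks below.

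The families differed in their counts. Of the 41 Fox genes, 19 were marked in the control list and 15 in the asthmatic list. Of the 18 Sox genes 4 and 1 were marked, and of the 8 Pax genes 3 and 1. None of the 8 Lhx genes was marked in either list, which with 8 genes allows a share of up to 36.9%. Fox genes were thus near the background of 52.5% and 43.7%, at 46.3% and 36.6%, and the Sox and Lhx genes were furthest below it. For comparison, the Hox genes, homeodomain factors that pattern the body axis, were marked at 8 and 2 of 39. The Klf genes, zinc finger factors of which several are expressed in lymphocytes, were marked at 13 and 10 of 16.

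**Figure D1:**
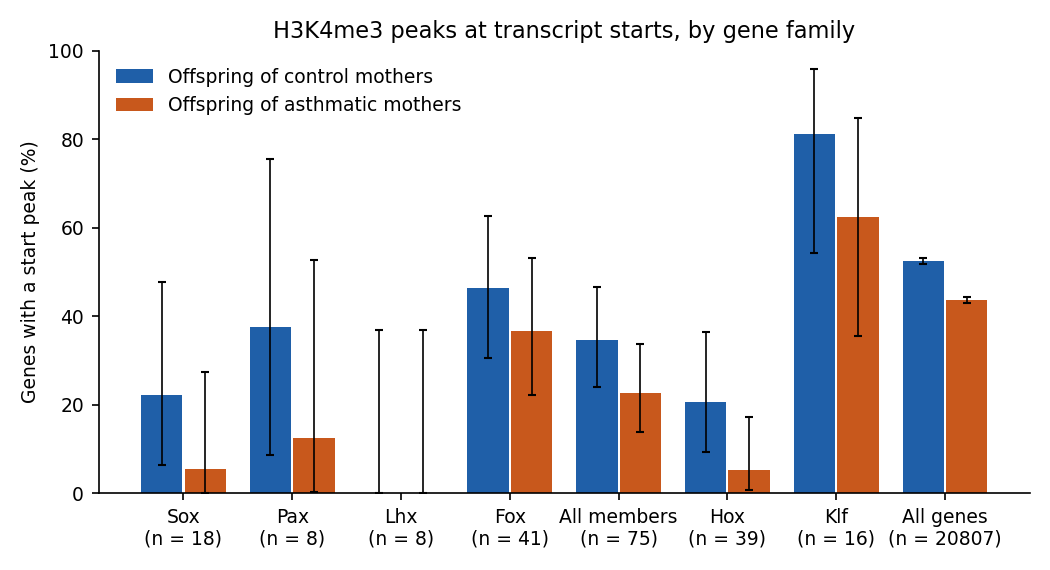
Share of genes with an H3K4me3 peak within 1000 bp of a transcript start (percent, vertical axis) by gene family, for control mothers' offspring (blue) and asthmatic mothers' offspring (orange). Bars show 1 library each and error bars are exact Clopper-Pearson 95% intervals for counting error. All members stood at 34.7% and 22.7%, all genes at 52.5% and 43.7%, and the Lhx genes at 0 in both lists.

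The marked Fox genes were spread over many classes, and some classes were marked throughout. All 3 FoxO genes (Foxo1, Foxo3 and Foxo6) and both FoxK genes (Foxk1 and Foxk2) were marked in both lists. FoxO proteins are held out of the nucleus by insulin and growth factor signalling, and FoxK proteins regulate metabolism and autophagy downstream of the same signals. The single FoxM gene, Foxm1, which drives genes of mitosis, was marked in both lists, as were 2 of 3 FoxP genes (Foxp1 and Foxp4), 2 of 4 FoxN genes (Foxn2 and Foxn3) and 2 of 3 FoxJ genes (Foxj2 and Foxj3). Foxa3 and Foxd2 completed the Fox genes in both lists. Outside the Fox family, Pax1 and Sox5 alone were marked in both lists.

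The 16 members in both lists were ordered by the mean, over the lists, of the percentile of their −log10 q among all genes marked in that list. Foxm1 came first at a mean percentile of 93.9. Its control peak (chr6:128362403-128363216, 814 bp) had an 8.49-fold signal and a −log10 q of 21.4, with 37 fragments at the summit. Its asthmatic peak (chr6:128362526-128362893, 368 bp) had an 8.83-fold signal and a −log10 q of 16.4, with 26 fragments. Foxm1 shares this promoter with the divergent gene Rhno1, whose start was nearer to the control summit, so the mark cannot be assigned to either gene alone.

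Foxa3, a forkhead factor of liver and gut, came second at 86.9, but its peaks lay off its start. The control peak (chr7:19024449-19025014, 566 bp, fold 9.34, −log10 q 19.5) ended 911 bp upstream of the start of Foxa3. The asthmatic peak (chr7:19024462-19024939, 478 bp, fold 8.05, −log10 q 12.8) ended 924 bp upstream. Both stood at the start of Sympk, a widely expressed gene for a factor of mRNA 3′ end processing, which was nearer to the summits than Foxa3 was.

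Foxk1 had a mean percentile of 72.9. Its control peak (chr5:142401322-142402209, 888 bp, fold 7.26, −log10 q 15.2) covered the start, and its asthmatic peak (chr5:142401545-142402353, 809 bp, fold 7.26, −log10 q 12.0) began 45 bp downstream of it. The paralogue Foxk2, whose promoter is printed above, had a mean percentile of 53.2 and a pair of peaks in each list, on both sides of the start. Its strongest control peak (chr11:121259391-121259886, 496 bp, fold 6.73, −log10 q 11.7) lay upstream and overlapped the printed promoter. Its strongest asthmatic peak (chr11:121260382-121260736, 355 bp, fold 7.04, −log10 q 10.0) lay downstream, with 18 fragments at the summit. The upstream asthmatic peak was nearly equal, with a −log10 q of 9.39 and 17 fragments.

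Pax1, needed for the skeleton and thymus, ranked next after Foxk1 at 63.7, with a control peak of 391 bp (chr2:147368866-147369256, fold 8.49, −log10 q 14.7) and an asthmatic peak of 521 bp (chr2:147368816-147369336, fold 7.04, −log10 q 10.0). These peaks lay in an intron. They differed from those of all other members in sequence: 100% of their bases were repeat-masked, and the 75 bases around the summit occurred at 956 (control) and 1649 (asthmatic) other places of the genome. The other 61 member peaks had no exact copy of these bases elsewhere. Without peaks whose summit is copied, Pax1 was unmarked in both lists.

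Foxj2 and Foxj3 are broadly expressed forkhead genes, with mean percentiles of 62.9 and 62.7. The control peak of Foxj2 (chr6:122819707-122820772, 1066 bp, fold 8.16, −log10 q 19.3) covered a start, as did its asthmatic peak (chr6:122819984-122820544, 561 bp, fold 5.98, −log10 q 7.74). Foxj3 had the widest control peak of all members (chr4:119539258-119540364, 1107 bp, fold 6.51, −log10 q 13.3) and an asthmatic peak of 567 bp (chr4:119539744-119540310, fold 6.91, −log10 q 11.0). Foxj2 stood higher in the control list than in the asthmatic list, at the 82.7 and 43.0 percentiles, and Foxj3 the other way, at 45.8 and 79.6.

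Foxn3, a repressor linked to cell cycle checkpoints, had 14 annotated starts and peaks at 2 promoters far apart, with 4 peaks in the control list and 3 in the asthmatic list. Its strongest control peak (chr12:99393144-99393508, 365 bp, fold 7.06, −log10 q 14.8) and its strongest asthmatic peak (chr12:99392412-99392964, 553 bp, fold 5.61, −log10 q 7.78) were at the inner promoter, on opposite sides of a start. Each of these was overlapped by another peak of the other list. The asthmatic peak on the other side of that start was nearly as strong, with a −log10 q of 7.12 and 17 fragments against 18. Its mean percentile was 52.7.

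Foxn2 and Foxp4 stood at very different ranks in the lists, in opposite directions. The Foxn2 control peak (chr17:88440772-88441796, 1025 bp, fold 7.76, −log10 q 20.3) had 38 fragments at the summit and stood at the 86.5 percentile. The asthmatic list had a pair of peaks there, the nearer one (chr17:88441064-88441448, 385 bp, fold 4.76, −log10 q 5.27) with 14 fragments, at the 16.2 percentile. The exact Poisson 95% intervals of these counts, 26.9 to 52.2 and 7.65 to 23.5, did not overlap, but the libraries were not scaled to each other. Foxp4, which acts with Foxp1 and Foxp2 in lung development, ranked the other way. Its control peak (chr17:47923793-47924712, 920 bp, fold 4.76, −log10 q 8.60) stood at the 15.8 percentile and its strongest asthmatic peak (chr17:47924111-47924293, 183 bp, fold 6.41, −log10 q 11.7) at 85.1. Both Foxp4 peaks had 25 fragments at the summit, so the ranks differed at equal counts, and with 1 library per group such differences in rank do not show a change.

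The other 6 members in both lists had mean percentiles of 33.7 or less. The FoxO genes were among them. Foxo3 had a control peak of 858 bp (chr10:42275787-42276644, −log10 q 9.19) downstream of its start and an asthmatic peak of 170 bp (chr10:42276901-42277070, −log10 q 7.81) upstream of it. It was the only one of the 16 whose start peaks in the lists did not overlap, and the share of all genes without such overlap was not computed. Foxo1, which maintains Il7r and homing receptor genes in lymphocytes, had a control peak of 1028 bp (chr3:52268460-52269487, −log10 q 9.64) with 29 fragments at the summit and an asthmatic peak of 341 bp (chr3:52268660-52269000, −log10 q 3.71) with 14. Both began after the start, 124 and 324 bp downstream, so neither covered the printed promoter. The exact Poisson 95% intervals of the summit fragments of Foxo1, 19.4 to 41.6 and 7.65 to 23.5, overlapped. The libraries were not scaled to each other, so this is no comparison of the groups. Foxo6, a FoxO gene best known from the brain, had weak peaks upstream of its start, with a −log10 q of 5.63 (514 bp) and 4.90 (274 bp).

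Foxp1, which keeps naive T cells quiescent, had the most starts of the marked members, 22, and 6 start peaks in the control list. The strongest (chr6:99521271-99522302, 1032 bp, −log10 q 10.7) lay near the upstream promoter. The asthmatic list had 1 peak (chr6:99028456-99028659, 204 bp, −log10 q 7.16), at an internal promoter, which a control peak overlapped, and no peak at the upstream promoter. Sox5, which acts in cartilage, had a −log10 q of 8.21 (611 bp) and 7.68 (171 bp), and Foxd2, of kidney and mesenchyme, one of 8.47 (536 bp) and 6.75 (179 bp). Starts of other genes lay within 1000 bp of several of these peaks: the noncoding genes Foxd2os at Foxd2, Gm26826 at Foxj2 and Gm20402 at Foxo1, and the protein-coding gene Frg2f1 at Foxj3.

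**Figure D2:**
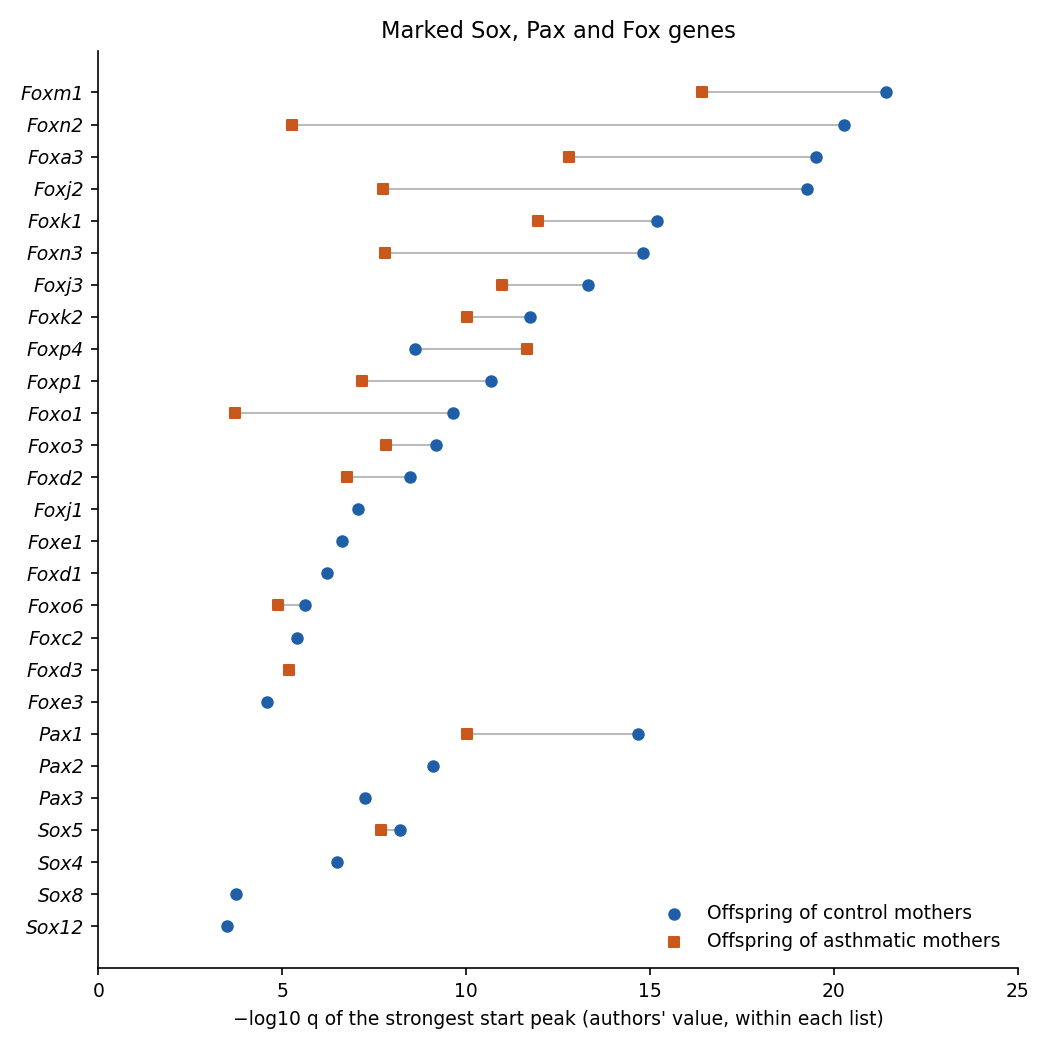
The authors' −log10 q of the strongest start peak (horizontal axis) for each of the 27 marked members, by family, in offspring of control mothers (blue circles) and of asthmatic mothers (orange squares), with 1 library each. A grey line joins the lists where both have a peak, and values are not scaled between the lists. The genes in the control list only lie between 3.51 and 9.09, and Foxm1 is highest in both lists.

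The 10 members in the control list only had weak and narrow peaks. Their −log10 q ranged from 3.51 to 9.09, with 11 to 20 fragments at the summit, and their median width was 232.5 bp. Genes in general that were in the control list only had a median width of 356 bp and a median −log10 q of 8.28, against 6.35 for these members. At 9 of the 10 the peak touched an exon of the gene.

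They were 3 Sox, 2 Pax and 5 Fox genes. Among the Sox genes, Sox4, which acts in lymphocyte development, had a peak of 429 bp (chr13:28952926-28953354, fold 4.92, −log10 q 6.50) that began 359 bp downstream of its start, outside the printed promoter. The SoxC paralogue Sox12 had a peak of 215 bp over its start (chr2:152397932-152398146, fold 4.01, −log10 q 3.51), the weakest of all members. Sox8, a SoxE gene of neural crest and testis, had one of 192 bp (chr17:25570389-25570580, fold 4.17, −log10 q 3.74), within 1000 bp of the antisense gene 2810468N07Rik. Sox12 and Sox8 had 11 fragments each at the summit, near the smallest number in the list, 9.

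Pax2, which acts in kidney and eye, had a peak of 304 bp (chr19:44756152-44756455, fold 5.86, −log10 q 9.09), the strongest of the 10. Pax3, of neural crest and muscle precursors, had one of 326 bp (chr1:78196403-78196728, fold 5.57, −log10 q 7.25). Their summits held 20 and 16 fragments. Pax1, with copied summit sequence, was thus the only Pax gene in the asthmatic list.

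Foxj1, the regulator of motile cilia in airway epithelium, had a peak of 218 bp upstream of its start (chr11:116335547-116335764, fold 5.66, −log10 q 7.06). Of 6 epithelial markers, Cdh1 and Epcam were marked in the control list and none in the asthmatic list, while Sftpc, Nkx2-1, Krt8 and Scgb1a1 were marked in neither. Foxc2, of lymphatic endothelium, had a peak of 200 bp (chr8:121116201-121116400, fold 4.95, −log10 q 5.39). Of 5 endothelial markers, Kdr was marked in the control list and none in the asthmatic list. The sort took CD45+ cells. Any part of epithelial or endothelial cells in the Foxj1 and Foxc2 peaks was not tested.

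The other Fox genes in the control list only were Foxd1, Foxe1 and Foxe3. Foxd1, of kidney stroma, had a peak of 247 bp (chr13:98354646-98354892, fold 5.31, −log10 q 6.21). Foxe1, of the thyroid, had one of 352 bp (chr4:46344479-46344830, fold 5.38, −log10 q 6.63) that began 870 bp downstream of its start. Foxe3, of the lens, had one of 211 bp (chr4:114925341-114925551, fold 4.60, −log10 q 4.60). The peaks of Foxe1 and Foxe3 lay inside genes with 1 annotated start each. Foxe1's peak was also within 1000 bp of the antisense gene Gm12446.

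Foxd3, a regulator of neural crest, was the only member in the asthmatic list only. Its peak (chr4:99657138-99657294, 157 bp, fold 5.07, −log10 q 5.17) began 839 bp downstream of the start, with 12 fragments at the summit, and was about as narrow as the narrowest peak of the list, 156 bp. The start of the miRNA gene Gm23366 was nearer to its summit than that of Foxd3.

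The share of control-marked genes that were also in the asthmatic list rose with the strength of the control peak, in members and in all genes. At a control −log10 q of 10 to 15, 5 of 5 members were also in the asthmatic list (87.5% of all genes), and at 15 or more, 5 of 5 (96.1%). At 7 to 10 the share was 5 of 8 (59.7%), at 5 to 7 it was 1 of 5 (38.8%) and below 5 it was 0 of 3 (21.9%). With so few members per range, their shares lay within counting error of all genes at the same strength. The members differed from genes in general in where they stood on this scale: the median control −log10 q was 8.84 in the 26 marked members and 13.8 in all marked genes. The median percentile of the members was 17.2 in the control list and 48.1 in the asthmatic list.

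Peak widths did not follow strength in the same way. In the control list the 16 members in both lists had a median width of 836 bp, the 86.4 percentile of marked genes, with a median −log10 q of 12.5. All genes in both lists had a median width of 572 bp with a median −log10 q of 14.8. In the control list the peaks of these 16 were thus broader, with a lower −log10 q, than those of all genes in both lists. This did not hold for all 26 control-marked members, whose median width was 505 bp against 532 bp for all marked genes. In the asthmatic list the 16 had a median width of 361.5 bp and a −log10 q of 7.80, against 343 bp and 8.14 in all genes in both lists. The control peak was wider than the asthmatic peak at 14 of 16 members, the exceptions being Pax1 and Foxn3, and at 92.0% of all genes in both lists. The median ratio of the widths was 2.08 in the members, with a range of 0.660 to 5.06, and 1.54 in all genes. These widths are of the strongest start peak alone, and several members had more than 1 start peak in the asthmatic list. With peaks at most 1000 bp apart joined, the 16 members had median widths of 972.5 bp (control) and 564 bp (asthmatic). All genes in both lists then had 714 and 411 bp. A ratio of joined widths was not computed.

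Peaks were next placed relative to the annotated starts. In the control list the strongest peak covered its nearest annotated start at 9 of 26 members (34.6%), against 68.5% of all marked genes. In the asthmatic list it did so at 2 of 17 (11.8%), against 45.1%. Counting any start peak of a gene, a start was covered at 11 of 26 members (42.3%, against 74.0% of all marked genes) and at 6 of 17 (35.3%, against 49.5%). The summit lay downstream of the start at 18 of 26 and 9 of 17 members (75.1% and 74.5% of all marked genes).

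**Figure D3:**
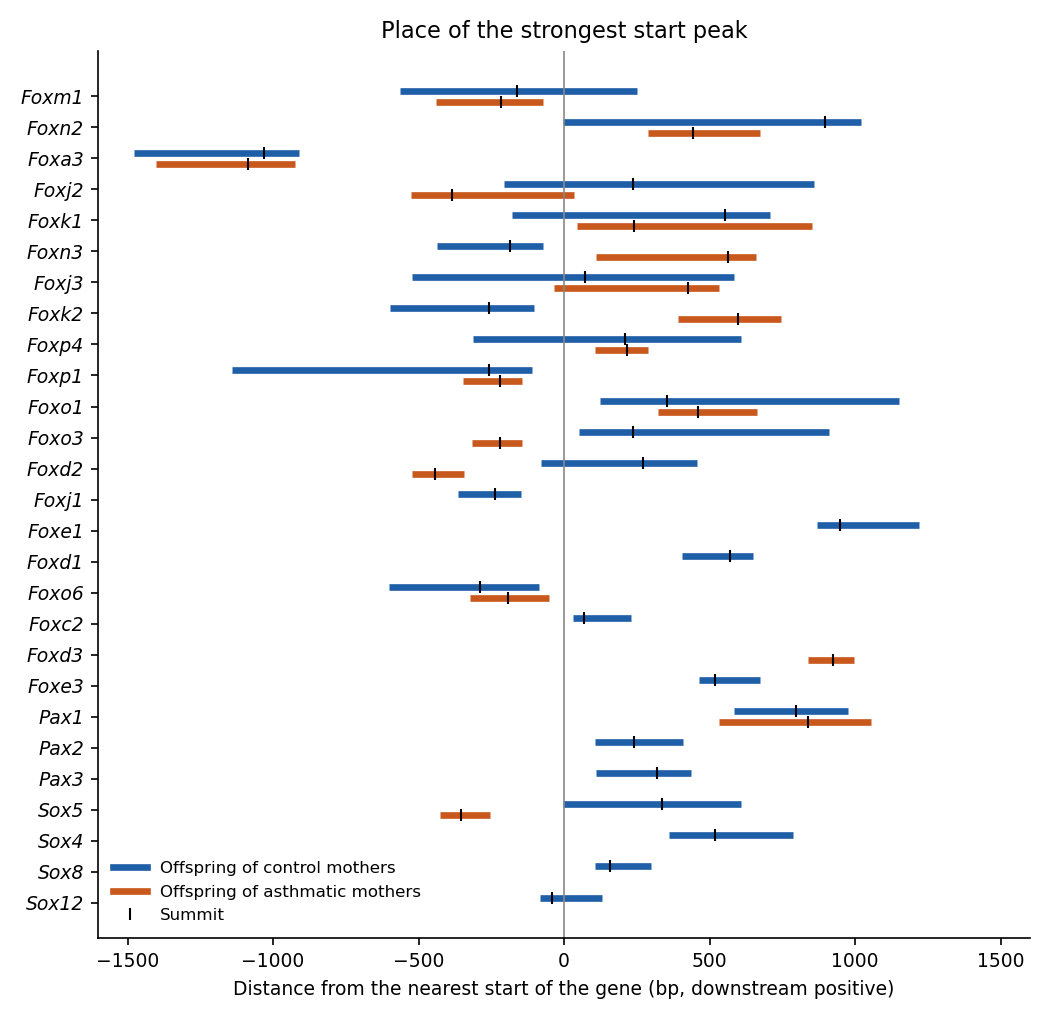
Place of the strongest start peak of each marked member relative to the nearest start of the gene (bp, downstream positive), in offspring of control mothers (blue) and of asthmatic mothers (orange), with the summit as a black tick. The vertical line is the start, which 9 of 26 control peaks and 2 of 17 asthmatic peaks cover. The Foxa3 peaks end 911 and 924 bp upstream, at the start of Sympk.

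CpG content separated marked from unmarked members only in part. The measure was the ratio of observed to expected CG dinucleotides in 300 bases around each start (250 before, 50 after), with the highest value over a gene's starts. Its median was 0.940 in the 16 members in both lists, 0.734 in the 11 in 1 list and 0.695 in the 48 in neither. In all genes it was 0.881 for those in 1 list or both and 0.310 for those in neither. At or above 0.6, a usual limit for CpG islands, were 32 of the 48 unmarked members (66.7%), against 23.4% of all unmarked genes. The unmarked members thus resembled marked genes in general in CpG content more than unmarked ones.

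Read the other way, genes with CpG-rich starts were mostly marked, and members with such starts were not. Of the 12060 genes at or above 0.6, 80.4% were marked in the control list and 68.1% in the asthmatic list. Of the 56 members at or above 0.6, 23 (41.1%, 28.1 to 55.0%) and 16 (28.6%, 17.3 to 42.2%) were. By family the control list marked 17 of 31 such Fox genes, 3 of 12 Sox, 3 of 6 Pax and 0 of 7 Lhx genes. Hox genes were at 7 of 33 and Klf genes at 12 of 14. At ratios of 0.6 to 0.8 the control list marked 7 of 26 members and 67.1% of all genes, at 0.8 to 1.0 it marked 8 of 19 and 83.5%, and at 1 or more 8 of 11 and 90.9%. At 1 or more the interval of the members (39.0 to 94.0%) included the share of all genes. Below 0.6 the control list marked 3 of 19 members (15.8%, 3.38 to 39.6%) and 13.9% of all genes, and the asthmatic list 1 of 19 (5.26%) and 10.1%.

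**Figure D4:**
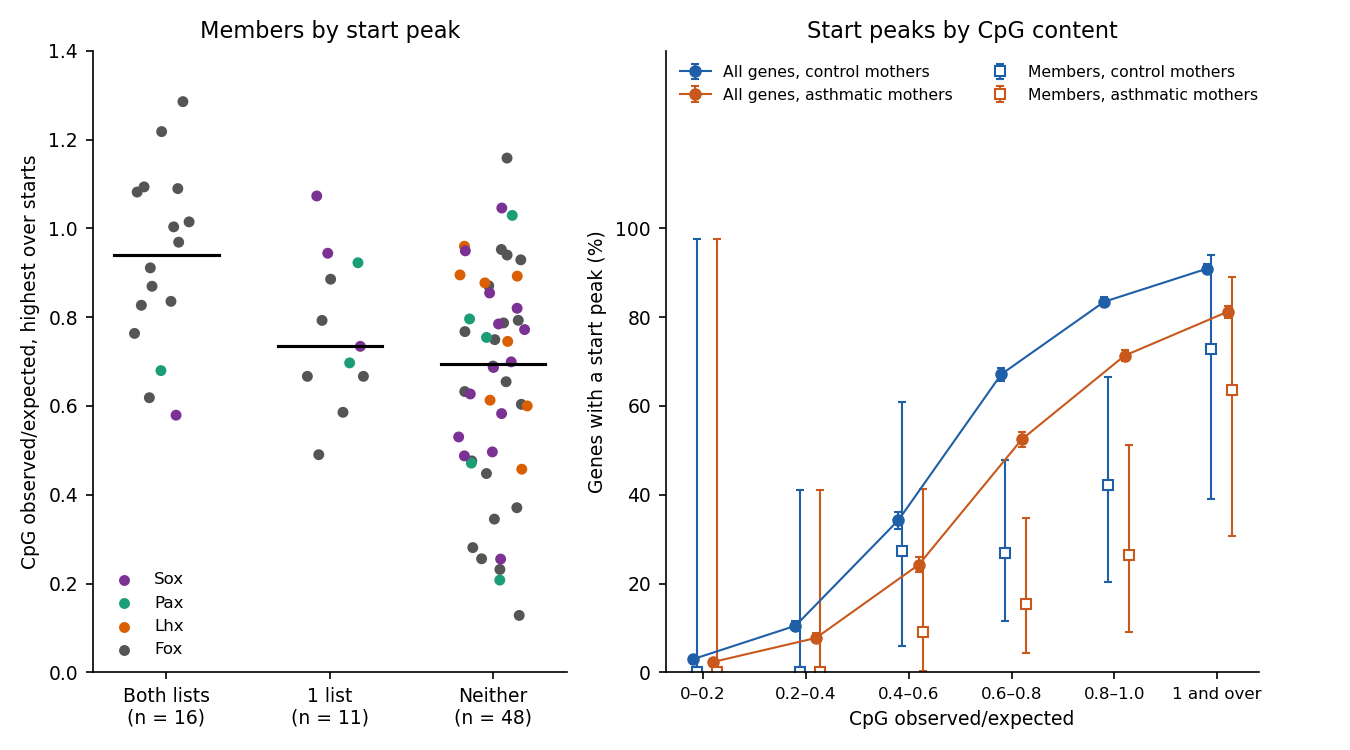
Left, CpG observed over expected (highest over a gene's starts) of the 75 members, by whether a start peak was in both lists, 1 list or neither, with the median as a line and families in colour. Right, the share of genes with a start peak (percent) by CpG observed over expected, for all genes (filled circles, joined) and members (open squares) in offspring of control (blue) and asthmatic (orange) mothers, with exact Clopper-Pearson 95% intervals. At 0.6 to 0.8 the control list marked 26.9% of members and 67.1% of all genes.

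Genes with more annotated starts were marked more often. With 1 annotated start, 10 of 34 members were marked in the control list and 5 of 34 in the asthmatic list, beside 23.9% and 18.4% of all genes with 1 start. With over 1 start, 16 of 41 and 12 of 41 were marked, beside 60.1% and 50.5%. Members with 1 start were thus near the level of such genes in general, and members with several starts were below it.

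The 48 unmarked members covered most classes. Among the Sox genes they were the SoxA/B genes Sox1, Sox2, Sox14 and Sox21, the SoxC gene Sox11, the SoxD genes Sox6 and Sox13, the SoxE genes Sox9 and Sox10, the SoxF genes Sox7, Sox17 and Sox18, and Sox15 and Sox30. Among the Pax genes they were Pax4, Pax6, Pax7, Pax8 and Pax9. All of Lhx1, Lhx2, Lhx3, Lhx4, Lhx5, Lhx6, Lhx8 and Lhx9 were unmarked. Among the Fox genes were Foxa1, Foxa2, Foxb1, Foxb2, Foxc1, Foxd4, Foxf1, Foxf2, Foxh1, Foxi1, Foxi2, Foxi3, Foxl1, Foxl2, Foxn1, Foxn4, Foxp2, Foxq1, Foxr1 and Foxs1. Several paralogue pairs were split, with Foxp1 and Foxp4 marked and Foxp2 not, and Foxn2 and Foxn3 marked and Foxn1 and Foxn4 not.

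The 5 unmarked members with the highest CpG ratio were Foxp2, Sox2, Pax6, Lhx1 and Foxl2. Foxp2, which acts in brain and lung epithelium, had a ratio of 1.16 at the richest of its 16 starts, and its nearest peak was 23.7 kb away in the control list and 13.1 kb in the asthmatic list. Sox2, of stem cells and airway basal cells, had a ratio of 1.05, and its nearest peaks were 201 and 29.0 kb away. Pax6, of the eye and brain, had a ratio of 1.03 with peaks 32.9 and 32.8 kb away. These starts were as CpG-rich as those of most members marked in both lists. Lhx1, of kidney and brain, followed at 0.960 (8.54 and 8.62 kb) and Foxl2, of the ovary, at 0.952 (31.1 and 31.2 kb). Foxi2 had the lowest ratio of all members, 0.128, with peaks 70.8 and 71.6 kb away.

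Peaks were far from most unmarked members. Over the members unmarked in a list, the median distance from a start to the nearest peak was 31.1 kb in the control list and 28.7 kb in the asthmatic list, against 24.0 and 20.7 kb for all unmarked genes. Sox9, of cartilage and distal lung epithelium, was the farthest, at 272 kb in both. Around the 1000 bp limit, the members just inside were Foxa3 at 911 bp and Foxe1 at 870 bp in the control list, and Foxa3 at 924 bp and Foxd3 at 839 bp in the asthmatic list. Just outside were Sox6 at 1100 bp, Foxh1 at 1662 bp and Foxq1 at 1755 bp in the control list, and Foxh1 at 1738 bp, Foxq1 at 1905 bp and Sox6 at 2341 bp in the asthmatic list. Beyond these the nearest peak was at least 3.83 kb away for members in neither list.

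**Figure D5:**
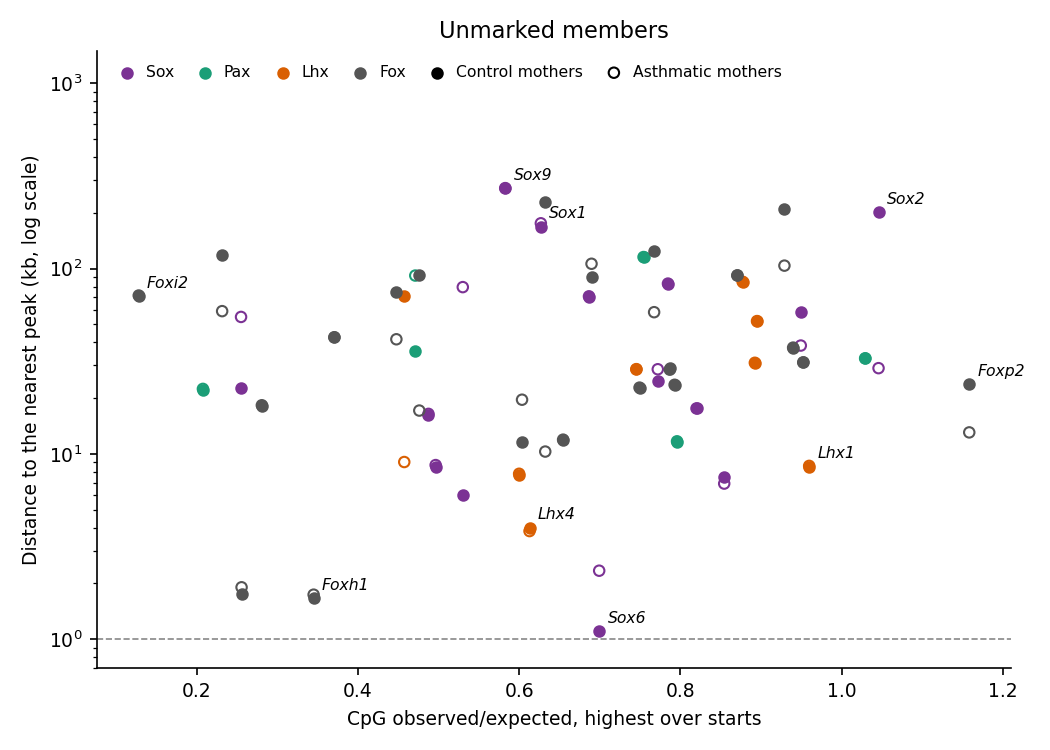
Distance from the nearest annotated start to the nearest peak (kb, log scale) against CpG observed over expected for the 48 members in neither list, by family (colour), in offspring of control mothers (filled) and of asthmatic mothers (open), with 9 genes named at their control value. The dashed line is the 1000 bp limit. Sox9 lies 272 kb from a peak in both lists and Sox6 1100 bp in the control list.

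Members were also grouped by the tissue or process in which they are best known. Of 5 members with roles in lymphoid cells, Sox4, Foxo1, Foxo3 and Foxp1 were marked in the control list, the last 3 of these also in the asthmatic list, and Sox13, which acts in gamma delta T cells, was unmarked. All 5 FoxO and FoxK genes and the cell cycle gene Foxm1 were marked in both lists. Of the 5 genes listed for airway and lung epithelium, Foxj1 was in the control list, and Foxa1, Foxa2, Sox2 and Sox9 were in neither. Of 4 endothelial genes, Foxc2 was in the control list, and Sox7, Sox17 and Sox18 were in neither. Foxf1 and Foxf2, of lung mesenchyme, were unmarked. The intervals of the lymphoid (28.4 to 99.5%), FoxO and FoxK (47.8 to 100%), epithelial (0.505 to 71.6%) and endothelial (0.631 to 80.6%) shares in the control list all included the 52.5% of all genes. In the asthmatic list the FoxO and FoxK interval was 47.8 to 100%, beside 43.7% of all genes. These 5 genes are paralogues and not independent draws, and their CpG ratios ran from 0.827 to 1.29. Of all genes, the asthmatic list marked 71.3% at ratios of 0.8 to 1.0 and 81.2% at 1 or more, both inside that interval. The groups are small and were drawn up with earlier results of these data known.

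Of the 19 genes listed for the nervous system, 2 were marked in the control list (Pax2 and Pax3) and 1 in the asthmatic list (Foxd3). The other 16 were in neither list, among them Sox1, Sox2, Sox10, Sox11, Sox21, Pax6, Pax7 and the 8 Lhx genes. Of the 3 genes listed for germ cells, Sox30, Lhx8 and Foxl2, none was marked. Of 3 genes of skin and thymic epithelium, Pax1 was in both lists, at the copied sequence described above, and Foxn1 and Pax9 were in neither. The listed nervous system genes were at 10.5% (1.30 to 33.1%) and 5.26% (0.133 to 26.0%), beside 52.5% and 43.7% of all genes. The groups do not hold every member known in a tissue, and some of those left out were marked. Foxo6 (both lists), Sox8 (control list only) and Foxp2 (neither list) also act in the nervous system or neural crest, Sox8 also acts in the testis, and Foxp1 and Foxp4 (both lists) and Foxp2 also act in lung epithelium. The group counts are therefore a description of these lists of genes and not of the tissues.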

How the data were processed

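H3K4me3 was profiled by CATCH-seq in 1 library of lung ILC2s per group. The authors trimmed paired reads with Trim Galore and Cutadapt, mapped them with Bowtie 2 on GRCm38, and took out duplicates using Sambamba. The peak caller, its threshold and its control are not given in the sources used here, and the reporting summary of the study says that the ChIP-seq data had no peak calls. The deposited lists give each peak a score (the −log10 q times 10, without decimals), a fold (the authors' ratio of summit signal to background), and −log10 p and −log10 q (the authors' p-value and q-value). Read depth is not in these lists.

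Peaks were read on GRCm38, counted from 1, against transcript starts of GENCODE vM21. A gene's width, fold and −log10 q are those of its start peak of highest −log10 q. Shares have exact Clopper-Pearson 95% intervals and summit fragments exact Poisson 95% intervals, and both cover counting error only. Summit fragments are derived, not the authors', from the fold and p of a Poisson model with 1 added to signal and background, which matched over 99.9% of peaks. CpG content, repeat masking and copies of the 75 summit bases came from the reference sequence. The solving and matching steps were tested on simulated data. The scripts ran in Python 3.11.15 (scipy 1.17.1, pandas 2.3.3, numpy 2.4.6; figures with matplotlib 3.10.9).

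All marked members are named with values, those in both lists in order of their mean percentile of −log10 q with the first 10 in full. Unmarked members are named by class, apart from an item that is not reported here, with values for the 5 of highest CpG content. Members, role lists, cell type markers and settings were chosen with earlier results of these data known. With 1 library per group no test was made. The coverage tracks and other data types were not used here.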

Additional observations from a re-analysis of the deposited data

How the results depend on the processing

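Of 68 values recomputed under the alternatives, 58 kept within 1.5 times the main count, within the interval or within the spread of the value reported, and 10 did not. A distance of 500 bp instead of 1000 bp left 0 members in the asthmatic list only, Foxd3 being lost. Foxd3 was also lost with the 10000 strongest peaks and with peaks nearer to another gene left out, where the 1 member in the asthmatic list only was Foxp4 and Foxm1, respectively. With the 10000 peaks of highest −log10 p of each list, 8 members were marked in the control list, 5 in the asthmatic list, 4 in both and 4 in the control list only, beside 33.8%, 9.82%, 8.91% and 24.9% of all genes. Those in the control list only were then Foxj2, Foxn2, Foxn3 and Pax1, none of the 10 of the report. The asthmatic share of the members (6.67%) was then within counting error of all genes. Where start peaks had to overlap by 50% of both, 8 of the 16 members remained in both lists. The share over all genes in both lists was not computed for this setting, so the loss cannot be called particular to the members. The median asthmatic width was 561 bp with peaks at most 1000 bp apart joined, and 561 bp as the sum over a gene's start peaks, against 355 bp. Over all genes marked in the asthmatic list these medians were 407, 399 and 341 bp. With a window reaching 500 bases to each side of the start, 83.5% of all genes at or above a CpG ratio of 0.6 were marked in the control list and 71.3% in the asthmatic list. Within 2000 bp, Foxh1, Foxq1 and Sox6 joined the control list and Foxh1 and Foxq1 the asthmatic list. Chosen after seeing the data, leaving out peaks with a copied summit gave 25 and 16 marked members, and leaving out also peaks nearer to another gene gave 23 and 14, with no share of all genes computed under these filters. No paired analysis was possible because each group had a single library. With no replicates, the spread between animals or libraries could not be estimated, and the number of fragments (a median of 21 and 18 at a summit) limits what the lists can hold.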
